A study of Mus musculus with 1989 samples.

Results

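The E protein genes Tcf3 and Tcf12 and the genes of their inhibitors, Id2 and Id3, were followed through thymocyte development in single-cell RNA and single-cell open chromatin of the mouse thymus. The members were taken by name: all 4 genes were present among the 8846 genes of the RNA table, and 179 of the 138317 chromatin peaks had one of their transcription starts as the nearest start of a protein-coding gene. The thymuses came from 7-week-old male C57BL/6 mice and were ground to single cells, with no treatment and no altered allele named. The RNA data were 1 droplet library of unsorted thymocytes with 1993 cells. The chromatin data were cells of 4 sorts, CD4- CD8- double-negative (DN, 182 cells), CD4+ CD8+ double-positive (DP, 125), CD4+ (119) and CD8+ (116), and 1084 unsorted cells (Total). The labels of the Total cells fall into 36 numbered sets, which are called plates here although the labels do not name them. The gates of the sorts were not given in the sources used here, and no animal is named for a cell. Each group therefore counts as 1 sample, no p-value is given, and every 95% interval covers counting error only.

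E proteins are basic helix-loop-helix transcription factors that bind E-box motifs as dimers. E2A, encoded by Tcf3, and HEB, encoded by Tcf12, pair with each other in thymocytes, where they drive T lineage genes and antigen receptor gene recombination and hold back passage of the selection checkpoints. Id proteins have the helix-loop-helix but no DNA-binding region, so an E protein paired with one cannot bind DNA. Signals from the pre-T cell receptor and the T cell receptor (TCR) are known to induce Id3 through Egr factors, and Id2 is known for its part in natural killer and innate lymphoid cells and in mature T cells.

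The sequences on which these genes start, and the middles of some highly counted distal peaks, are shown for their E-boxes. The promoters run from 250 bases before to 50 bases after the start, come from RefSeq on GRCm38.p6 and are printed on the strand of the gene. The letters searched, on both strands, were CAGCTG, which is its own reverse complement, CAGGTG, which reads CACCTG on the other strand, and the Egr motifs GCGTGGGCG and GCGGGGGCG, which can overlap only at their ends. Capitals mark a match. The Id2 promoter (chr12:25096043-25096342, minus strand) and the Tcf12 promoter farthest upstream (chr9:72111770-72112069, minus strand) each held 1 CAGCTG. The other Tcf12 promoters (chr9:72111152-72111451 and chr9:71896047-71896346, minus strand) held none of the 4 motifs and are not printed. The Id3 promoter (chr4:136143572-136143871, plus strand) and the Tcf3 promoter (chr10:80433586-80433885, minus strand) held none of the 4 motifs. Either E-box was present in 32.9% of 32851 promoters, CAGCTG alone in 16.3%, CAGGTG in 20.2%, GCGTGGGCG in 0.612% and GCGGGGGCG in 2.91%.
Id2 promoter: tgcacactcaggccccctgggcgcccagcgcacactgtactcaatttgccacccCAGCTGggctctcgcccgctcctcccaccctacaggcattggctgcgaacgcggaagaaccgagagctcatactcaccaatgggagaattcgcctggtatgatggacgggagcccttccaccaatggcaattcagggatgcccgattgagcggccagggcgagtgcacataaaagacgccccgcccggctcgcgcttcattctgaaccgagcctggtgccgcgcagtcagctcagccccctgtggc
Id3 promoter: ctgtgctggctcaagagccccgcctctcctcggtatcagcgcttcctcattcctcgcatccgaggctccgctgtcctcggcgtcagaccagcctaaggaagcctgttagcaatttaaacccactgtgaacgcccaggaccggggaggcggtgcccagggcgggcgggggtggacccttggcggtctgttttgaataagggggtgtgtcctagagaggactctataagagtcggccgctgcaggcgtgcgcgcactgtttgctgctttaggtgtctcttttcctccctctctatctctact
Tcf12 promoter: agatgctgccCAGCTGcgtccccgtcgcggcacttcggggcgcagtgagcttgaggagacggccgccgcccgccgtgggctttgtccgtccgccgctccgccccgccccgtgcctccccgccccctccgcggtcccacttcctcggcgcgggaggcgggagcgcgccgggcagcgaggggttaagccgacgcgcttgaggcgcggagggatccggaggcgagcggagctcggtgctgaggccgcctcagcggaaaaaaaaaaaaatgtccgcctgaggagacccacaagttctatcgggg
Tcf3 promoter: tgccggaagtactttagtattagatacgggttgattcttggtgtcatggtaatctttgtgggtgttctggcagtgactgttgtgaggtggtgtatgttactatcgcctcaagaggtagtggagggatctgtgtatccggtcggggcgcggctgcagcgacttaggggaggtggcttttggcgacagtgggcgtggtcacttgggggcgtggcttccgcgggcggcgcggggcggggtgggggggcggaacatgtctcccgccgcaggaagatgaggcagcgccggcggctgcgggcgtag

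The middle 300 bases are shown for 3 distal peaks, read on the plus strand of GRCm38.p6. At Id2, Id3 and Tcf12 each is the most counted peak centered over 2 kb from a start, among peaks that do not overlap. Counts over all cells were ranked, and Total cells gave most counts. Each peak is 4000 bases wide, so the open site may lie outside the middle shown. At Tcf3 the peak taken by the same rule (chr10:80446229-80446528) held 2 CAGGTG and is not printed. The Id2 peak lies 92385 bp upstream of the Id2 start inside the long noncoding genes Gm36287 and Gm47705 (chr12:25189376-25189675), and its middle held 1 CAGCTG and 2 CAGGTG. The Id3 peak is centered 4495 bp downstream of the Id3 start, beyond the end of the gene (chr4:136147843-136148142), and held 1 CAGGTG and 1 GCGGGGGCG. The Tcf12 peak lies 21494 bp upstream of the Tcf12 start (chr9:72133216-72133515) and held 1 CAGCTG.
Id2 upstream peak: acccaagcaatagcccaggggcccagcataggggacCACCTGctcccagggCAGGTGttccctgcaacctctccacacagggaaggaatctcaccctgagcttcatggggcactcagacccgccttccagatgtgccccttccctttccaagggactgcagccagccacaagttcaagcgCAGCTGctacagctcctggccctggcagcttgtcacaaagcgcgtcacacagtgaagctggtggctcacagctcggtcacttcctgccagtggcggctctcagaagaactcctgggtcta
Id3 downstream peak: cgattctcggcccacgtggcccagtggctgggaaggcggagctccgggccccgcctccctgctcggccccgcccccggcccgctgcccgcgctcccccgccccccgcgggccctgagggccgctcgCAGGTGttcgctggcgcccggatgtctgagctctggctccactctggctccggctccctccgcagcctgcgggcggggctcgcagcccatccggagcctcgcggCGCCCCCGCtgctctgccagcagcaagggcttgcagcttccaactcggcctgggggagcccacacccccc
Tcf12 upstream peak: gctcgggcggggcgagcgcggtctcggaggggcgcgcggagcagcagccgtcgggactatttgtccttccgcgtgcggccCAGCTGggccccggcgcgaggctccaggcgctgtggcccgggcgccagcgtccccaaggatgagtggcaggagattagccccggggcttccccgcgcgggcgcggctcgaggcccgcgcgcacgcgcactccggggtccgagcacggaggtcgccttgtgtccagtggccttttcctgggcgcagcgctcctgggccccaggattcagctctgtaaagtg

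Over all 138317 peaks, the middle 300 bases held either E-box in 41.7%, CAGCTG in 20.1%, CAGGTG in 28.0%, GCGTGGGCG in 0.26% and GCGGGGGCG in 1.02%. Of the 179 peaks of the 4 loci, 96 (53.6%) held an E-box. These were 51 of 91 at Id2, 24 of 32 at Id3, 17 of 47 at Tcf12 and 4 of 9 at Tcf3. Many peaks overlap, and among those that do not the count was 40 of 75 (53.3%) beside 42.7% of 62552. By gene it was 23 of 39 at Id2, 4 of 8 at Id3, 11 of 24 at Tcf12 and 2 of 4 at Tcf3. A match of letters is not a bound site.

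The deposited RNA values are on a log2 scale and quantile-normalized, so the original molecule counts are not used. Each value was replaced by its step, that is its rank among the distinct values of its cell, and every cell was thinned to 1300 steps so that cells of different depth could be compared. A thinned share is the percentage of cells of a class that keep at least 1 step of a gene. Cells were clustered without the 4 members and without the genes of the lists used below, and 13 of 16 clusters were given a class name from marker genes by a rule that was set after the clusters had been seen. The names are rebuilt and may differ from those of the study. The classes were DN-like (79 cells), immature single-positive (ISP-like, 181), DP blasts (DPbla-like, 349), rearranging DP (DPre-like, 376), DP under selection (DPsel-like, 219), CD4sp-like (163), CD8sp-like (121), natural-killer-like or cytotoxic (NCL-like, 29) and antigen-presenting (APC-like, 36). The APC-like cells were led by the B cell genes Cd79a and Ms4a1. Clusters 1 (193 cells, led by Itm2a and Cd40lg), 7 (127) and 9 (120) stayed unnamed.

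The class labels held against some defining genes and not against others, and the clusters were named from such markers. Il2ra had a thinned share of 51.9% in DN-like cells and 2.21% in ISP-like cells, Mki67 51.6% among DPbla-like cells against 4.79% among DPre-like cells, and Klrd1 75.9% in NCL-like cells. The coreceptor genes separated less well. CD4sp-like cells had the same share of Cd8a as of Cd4 (40.5%) and Cd8b1 at 55.2%, and DN-like cells had Cd8b1 at 50.6%, Cd8a at 32.9% and Nkg7 at 29.1%. In the chromatin sorts, signal at Cd8a was 2.94 counts per 10000 counts in peaks in DP and 2.03 in CD8 cells against 0.77 in DN and 0.85 in CD4 cells, whereas signal at Cd4 (0.70 to 1.22) did not separate the sorts. Signal at Il2ra, a gene of DN cells, was lowest in the DN sort (1.67, against 2.52 in DP, 2.32 in CD4 and 2.41 in CD8 cells), and signal at Runx3, a CD8 lineage gene, was highest there (4.35, against 3.83 in CD8 cells). Median depth per RNA cell ranged from 1885 steps in DPsel-like to 9572 in ISP-like cells. Free RNA and doublets were not removed by a caller. Cd79a, a B cell gene with a share of 38.9% in APC-like cells (median 2407.5 steps), had 1.60% in DPre-like cells (median 1905 steps), and Nkg7, at 100% in NCL-like cells, had 1.33%. Ms4a1, another B cell gene, had a share of 0 in DPre-like cells, while Cd79b, at 33.3% in APC-like cells, had 8.24% in DPre-like (5.67 to 11.5) and 8.86% in DN-like cells, above the Id2 shares of those classes. The T cell genes Rag1 and Cd8b1 had 27.8% and 72.2% in the APC-like cells, so a share of a thymocyte gene in those 36 cells cannot be read as expression. NCL-like cells had Rag1 at 13.8% and Cd8b1 at 37.9%, but the CD3 genes were high in them (Cd3g 89.7%, Cd3d 96.6% and Cd3e 72.4%).

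Tcf3, the gene of E2A, was found with overlapping intervals through the 5 classes from DN-like to DPsel-like cells and at a lower share in CD4sp-like cells. Its thinned share was 18.9% over all cells. DN-like cells had 22.8% (95% interval 14.1 to 33.6), ISP-like cells 22.1%, DPbla-like cells 24.6% (20.2 to 29.5), DPre-like cells 18.9% and DPsel-like cells 20.1%. The intervals of these 5 classes overlapped. It was 15.7% in CD8sp-like, 12.3% in CD4sp-like (7.66 to 18.3) and 11.4% in cluster 1 cells, and in NCL-like cells 1 of 29 cells kept a step (3.45%, 0.09 to 17.8). DPsel-like over DPre-like cells gave a ratio of 1.06 (0.76 to 1.49), and CD4sp-like over DPsel-like cells 0.61 (0.375 to 0.995), an interval just short of 1.

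Tcf12, the gene of HEB, had its highest share in rearranging DP cells, with lower shares on either side. Its thinned share was 45.6% in DN-like (34.3 to 57.2), 33.7% among ISP-like cells (26.9 to 41.1), 35.0% among DPbla-like cells (30.0 to 40.2) and 58.2% among DPre-like cells (53.1 to 63.3). Both DPre-like clusters were high, at 55.6% and 62.7%, above every other cluster. From there the share was 27.9% in DPsel-like (22.0 to 34.3), 22.3% in cluster 1, 21.5% in both CD4sp-like and CD8sp-like, 24.1% in NCL-like and 13.9% in APC-like cells. The DPsel-like to DPre-like ratio was 0.48 (0.38 to 0.60), and all 12 alternatives gave between 0.46 and 0.58. The mean log2 value was 1.14 ± 0.93 (SD over cells, n = 376) in DPre-like and 0.50 ± 0.72 (n = 219) in DPsel-like cells. The CD4sp-like to DPsel-like ratio was 0.77 (0.54 to 1.11), an interval that includes 1. With the average over all possible thinnings in place of 1 draw it was 0.64 (0.44 to 0.94). The CD8sp-like to DPsel-like ratio was then 0.70 (0.47 to 1.06).

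Id2 had low shares in every class up to the DPre-like cells and in the main DPsel-like cluster 5 (5.41%, 2.36 to 10.4), and higher ones in cluster 13 (22.5%), cluster 1 and the single-positive classes. Its thinned share was 3.80% in DN-like (0.79 to 10.7), 3.31% among ISP-like cells, 4.30% among DPbla-like cells and 3.46% among DPre-like cells (1.85 to 5.84). For comparison, Nkg7 had 1.33% in DPre-like cells (0.43 to 3.08) and 0.57% in DPbla-like cells (0.07 to 2.05), so that Id2 was above it in DPbla-like cells and overlapped it in DPre-like cells. The Id2 shares were 11.0% in DPsel-like (7.15 to 15.9), 21.5% in CD4sp-like (15.4 to 28.6), 29.8% in CD8sp-like (21.8 to 38.7), 45.6% in cluster 1 (38.4 to 52.9) and 89.7% in NCL-like cells (72.7 to 97.8). The APC-like cells had 36.1%. Among thymocytes the unnamed cluster 1 was highest, above CD4sp-like cells by more than their intervals, while CD4sp-like and CD8sp-like cells overlapped (ratio 1.39, 0.93 to 2.07). The mean log2 value was 3.45 ± 1.09 (SD, n = 29) in NCL-like and 1.12 ± 1.35 (n = 193) in cluster 1 cells.

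Id3 was lower in DN-like cells than in the ISP-like to single-positive classes, highest in DPsel-like cells and lowest of all in NCL-like cells. Its thinned share was 8.86% in DN-like (3.64 to 17.4), 28.2% among ISP-like cells (21.7 to 35.3), 23.5% among DPbla-like cells (19.1 to 28.3) and 34.3% among DPre-like cells (29.5 to 39.4). With the average over all possible thinnings in place of 1 draw, the DN-like share was 12.1%. It reached 53.0% in DPsel-like cells (46.1 to 59.7), and within them 58.1% in cluster 5 and 42.3% in cluster 13, then 44.8% in CD4sp-like (37.0 to 52.8) and 36.4% in CD8sp-like cells (27.8 to 45.6). It was 23.3% in cluster 1 (17.5 to 29.9) and 1 of 29 NCL-like cells (3.45%). The unnamed cluster 9, led by the replication genes Cdc6 and Ung, had 43.3%, while the smallest DPbla-like cluster had 16.7%.

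**Figure D1:**
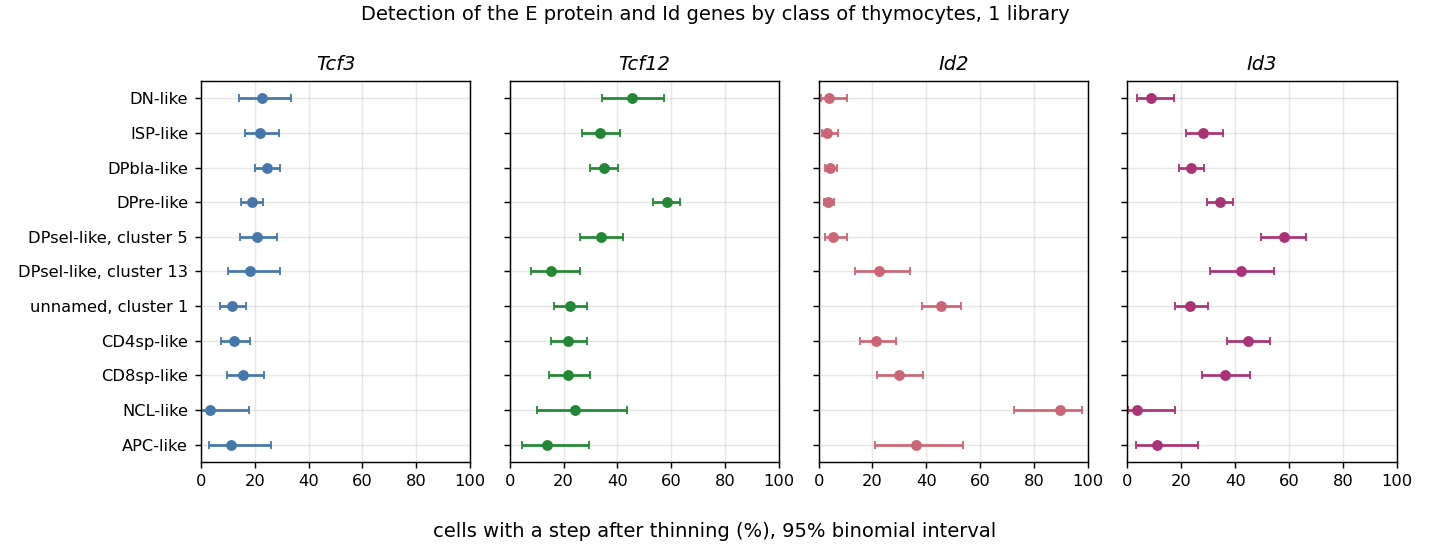
Thinned share of cells with each gene (%, horizontal axis, 1 panel per gene) by class or cluster, with 95% binomial intervals as bars. DPsel-like cells are drawn as clusters 5 and 13. Tcf12 stands highest in DPre-like cells (58.2%), Id3 in cluster 5 (58.1%) and Id2 in NCL-like cells (89.7%), while Tcf3 stays between 3.45% and 24.6%.

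The members were then compared between neighboring classes. A gene was counted as tested where its thinned share was at least 5% in either class, and as called where the shares differed at least 1.5-fold. A gene tested through 1 class and under 3.33% in the other had to be called, so beside the counts of listed genes the number of such calls is given. Id2 was under 5% in all classes up to DPre-like cells and so was tested only beyond them. From DN-like to ISP-like cells Id3 was higher (ratio 3.18, 1.51 to 6.69, and 2.09, 1.10 to 3.98, with the average over all possible thinnings) and neither E protein gene was called, beside 20.8% of 5674 genes called higher and 36.4% lower. From ISP-like to DPbla-like cells no member was called, beside 18.7% of genes higher and 18.8% lower. From DPbla-like to DPre-like cells Tcf12 was higher (1.67, 1.41 to 1.97), beside 30.3% called higher and 16.7% lower, and Id3 stayed under the threshold at 1.46 (1.15 to 1.85). From DPre-like to DPsel-like cells Tcf12 was lower, while Id2 (3.17, 1.65 to 6.10, but 1.56, 0.66 to 3.69, without cluster 13) and Id3 (1.54, 1.28 to 1.86) were higher. The background was 15.8% of 5288 genes called higher and 16.4% lower. From DPsel-like cells Id2 went higher in CD4sp-like (1.96, 1.21 to 3.16) and CD8sp-like cells (2.71, 1.70 to 4.33), beside 14.6% and 15.6% of genes called higher, and Tcf3 was called lower in CD4sp-like cells beside 19.2%. The Id3 ratio there was 0.85 (0.68 to 1.04) for CD4sp-like and 0.69 (0.53 to 0.90) for CD8sp-like cells, and CD8sp-like over CD4sp-like cells gave no call for any member, beside 16.6% higher and 15.3% lower. DN-like cells had less Id3 than DPre-like cells (0.26, 0.13 to 0.53, and 0.46 with another random thinning) and the Tcf12 ratio was 0.78 (0.61 to 1.01), beside 27.5% of genes called higher and 21.2% lower.

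Id2 and Id3 parted in cluster 1. This cluster is led by Itm2a (thinned share 81.9%) and had Cd40lg at 23.8%, Cd69 at 19.2% and both coreceptor genes (Cd4 34.7%, Cd8a 42.5%). Against cluster 5, the main DPsel-like cluster, Id2 was higher (45.6% against 5.41%, ratio 8.44, 4.23 to 16.8) and Id3 lower (23.3% against 58.1%, ratio 0.40, 0.30 to 0.54). Tcf12 (0.66) and Tcf3 (0.54) were lower as well, beside 17.5% of genes called higher and 17.4% lower. Against cluster 1, Id2 was lower in CD4sp-like (0.47, 0.34 to 0.66) and CD8sp-like cells (0.65, 0.48 to 0.89) and Id3 higher (1.92, 1.41 to 2.61, and 1.56, 1.10 to 2.21). The backgrounds were 14% of genes called higher and 17.9% lower for CD4sp-like, and 15.8% and 19.6% for CD8sp-like cells. These ratios are of shares. In summed steps Id3 was not higher in CD8sp-like cells (59 steps in 121 cells, against 120 in 193 in cluster 1). CD4sp-like cells had 118 in 163 cells. The mean log2 value of Id3 was 0.57 in cluster 1 and 0.87 in CD8sp-like cells. Within cluster 1 the 2 genes were not apart by cell. Id3 was kept in 22.7% of the 88 cluster 1 cells with Id2 and in 23.8% of the 105 without it. The order of these clusters in development was not measured.

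Within the DPsel-like class the smaller cluster 13, led by the TNF receptor gene Tnfrsf9, had more Id2 than cluster 5 (22.5% against 5.41%, ratio 4.17) and less Tcf12 (15.5% against 33.8%, ratio 0.46), beside 22.7% of genes called higher and 23.9% lower. The Id2 ratio of DPsel-like over DPre-like cells rests largely on that cluster of 71 cells, since it was 1.56 (0.66 to 3.69) without it. With cluster 1 counted as DPsel-like the same ratio was 6.51 and that of Id3 was 1.14. The Tcf12 ratio of cluster 5 alone against DPre-like cells was 0.58 and the Id3 ratio 1.69, beside 15.9% higher and 17.2% lower.

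**Figure D2:**
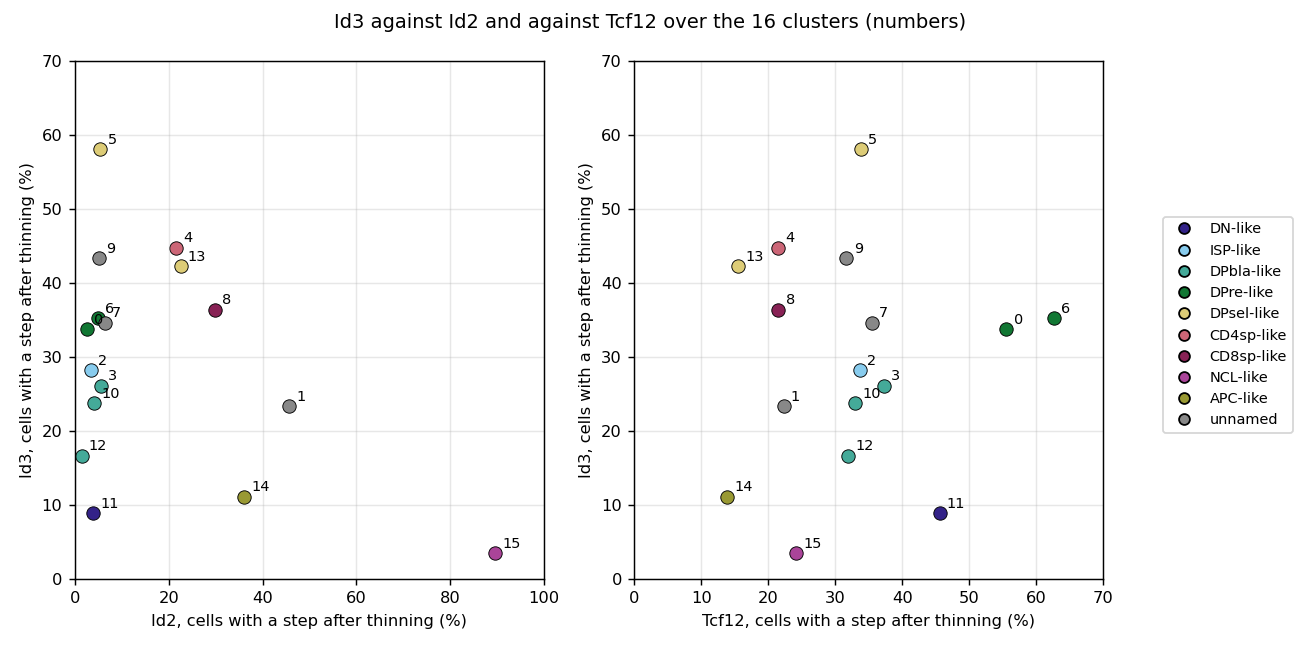
Thinned share of Id3 (%, vertical axes) against that of Id2 (left) and of Tcf12 (right) in each of the 16 clusters, 1 point per cluster. Cluster 5 lies at high Id3 and low Id2 (58.1% and 5.41%) and cluster 1 at the reverse (23.3% and 45.6%).

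NCL-like cells had Id2 without Id3. Against CD8sp-like cells Id2 was higher (ratio 3.01, 2.23 to 4.07) and Id3 lower (0.09, 0.01 to 0.66), and Tcf3 was called lower from 1 cell (0.22, 0.03 to 1.57). With the average over all possible thinnings the Id3 and Tcf3 ratios were 0.16 and 0.43. The background was 29.2% of 5302 genes called in each direction. The Tcf12 ratio was 1.12 (0.54 to 2.33), in cells where Rag1 had 13.8% and Cd8b1 37.9%, and the part of free RNA in it was not tested. Of the genes of innate and effector lymphocytes, 9 of 10 tested were higher and none lower, but 5 of the 9, Il18r1 among them, had to be called. Of the other 5 genes 4 were higher and none lower, beside 21.4% and 26.9% of such genes in the table. Named by size, the 9 include Cxcr6, a chemokine receptor of tissue lymphocytes (6.61% to 41.4%), Il18r1, a receptor chain for interleukin-18 (2.48% to 31.0%), and Icos, a costimulatory receptor (7.44% to 31.0%).

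The balance of inhibitors to E proteins was summarized as steps of Id2 and Id3 over steps of Tcf3 and Tcf12, which compares classes with each other and not genes. Its intervals treat steps as independent and so are too narrow, since steps gather within cells. In cluster 1, for example, 120 Id3 steps came from 45 cells. The ratio was 0.14 in DN-like cells (0.07 to 0.28) and lay between 0.45 and 0.58 in the next classes, at 0.46 in DPre-like cells (0.39 to 0.55). It stood at 2.46 in DPsel-like cells (1.99 to 3.02), at 2.25 in cluster 5 and 3.28 in cluster 13, at 4.36 in cluster 1 (3.38 to 5.63), 3.03 in CD4sp-like, 2.19 in CD8sp-like and 17.1 in NCL-like cells (8.74 to 33.5). The step between DPre-like and DPsel-like cells was made of fewer Tcf12 steps (322 in 376 cells against 77 in 219) and more Id3 steps (174 against 274). In DPsel-like cells Id2 contributed 33 of 307 Id steps, and in cluster 1 it contributed 194 of 314.

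**Figure D3:**
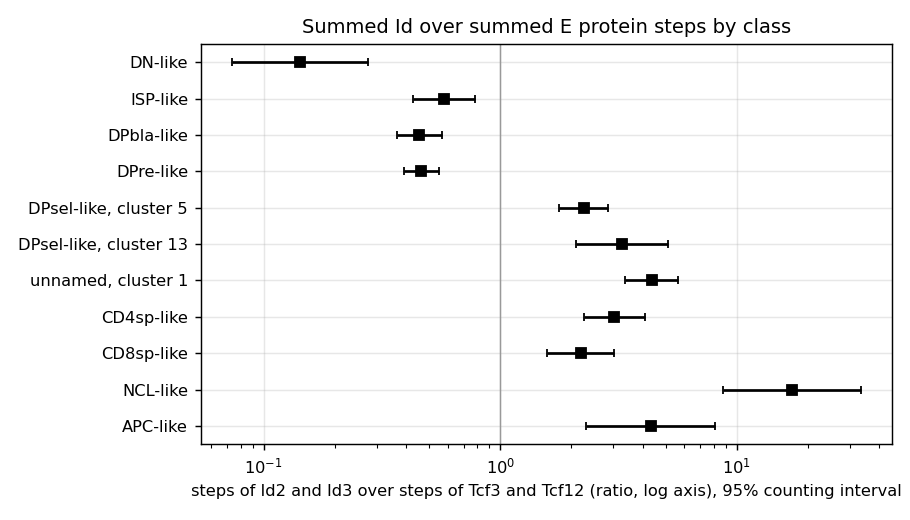
Steps of Id2 and Id3 divided by steps of Tcf3 and Tcf12 (log axis) by class or cluster, with 95% intervals as bars. The ratio stays under 1 from DN-like (0.14) to DPre-like cells (0.46). It lies over 2 from the DPsel-like clusters 5 (2.25) and 13 (3.28) on.

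Other members of the E protein and Id family and their cofactors followed Tcf12 in part. Of 19 such genes 9 were in the table. From DPbla-like to DPre-like cells 5 of 6 tested were higher and none lower, beside 30.3% and 16.7% of all genes, and 1 of the 5, Ep300, had to be called. They include Cbfa2t3, a corepressor of the ETO family (7.45% to 18.6%, ratio 2.50, 1.63 to 3.83), Crebbp, an acetyltransferase coactivator (10.3% to 18.9%), and Tcf4, the gene of the E protein E2-2 (7.74% to 13.6%). From DPre-like to DPsel-like cells Cbfa2t3 (18.6% to 4.11%, ratio 0.22, 0.11 to 0.43) and Tcf4 (13.6% to 4.11%) were lower, and Lmo4, a LIM-domain adaptor, was higher (15.2% to 24.2%). That is 2 lower and 1 higher of 6 tested, beside 16.4% and 15.8% of all genes. From DN-like to ISP-like cells 3 of 5 were lower and 1 higher, beside 36.4% and 20.8% of all genes, and Cbfa2t3 was among the lower ones (21.5% to 5.52%).

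All 16 listed genes that E proteins are known to promote in thymocytes were in the table. From DPbla-like to DPre-like cells 5 of 14 tested were higher and none lower, near the 30.3% of all genes called higher, with a median difference of 13.4 points beside 1.45. The 5 include the recombinase gene Rag1 (39.3% to 77.1%, ratio 1.96), the ETS factor gene Ets1 (40.1% to 63.8%) and Themis, a TCR signaling regulator (37.5% to 60.4%). From DPre-like to DPsel-like cells 7 were lower and 1 higher of 14, beside 16.4% and 15.8% of all genes, with a median of -9.96 points beside -0.02. Rag1 was at 22.8% there (ratio 0.30, 0.23 to 0.38), Dntt, the terminal transferase gene, went from 88.0% to 34.2% and Bcl11b, a T identity factor, from 83.8% to 55.3%. Lef1, a TCF/LEF factor, was the exception (30.3% to 56.6%, ratio 1.87, 1.54 to 2.26). From DN-like to ISP-like cells 6 of 16 were lower and 3 higher, close to the 36.4% and 20.8% of all genes, of which 2 and 1 had to be called, and among the former were the Notch target Hes1 (38.0% to 3.31%, a call that the filter fixed) and Notch1 (46.8% to 19.3%).

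Of 10 listed genes that E proteins are known to hold back 9 were in the table, and most of them had higher shares in single-positive than in DPsel-like cells and lower ones in NCL-like than in CD8sp-like cells. From DPre-like to DPsel-like cells 6 of 7 tested were higher and none lower, beside 15.8% and 16.4% of all genes, but 2 of the 6, Klf2 and Ccr7, had to be called. Of the other 5 genes 4 were higher and none lower, beside 11.5% and 13.1% of such genes in the table, with a median difference of 6.48 points beside -0.03. In cluster 5 alone against DPre-like cells 3 of 5 were higher and 1 lower, beside 15.9% and 17.2%. The survival gene Bcl2 went from 5.85% to 37.0% (ratio 6.32, 4.07 to 9.82), Gata3, a CD4 lineage factor, from 11.4% to 29.7% and Klf2, a regulator of thymic exit, from 2.39% to 17.8%. In CD4sp-like against DPsel-like cells 6 of 9 were higher and 2 lower, beside 14.6% and 19.2% of all genes, with a median of 19.6 points beside -0.64, led by Klf2 (to 71.2%) and S1pr1, the exit receptor (4.57% to 36.2%), while Gata3 (to 19.6%) and the kinase gene Cdk6 (15.5% to 4.91%) were lower. In CD8sp-like against DPsel-like cells 7 were higher and 1 lower of 9, beside 15.6% and 21.4% of all genes. In NCL-like against CD8sp-like cells, by contrast, 6 of 9 were lower, 2 of which had to be called, and 1 higher, beside 29.2% of all genes in each direction. Klf2 went from 49.6% to 20.7% there and Il7r, the interleukin-7 receptor gene, from 19.8% to 55.2%. In cluster 1 against cluster 5, 5 of 8 were higher and 1 lower, beside 17.5% and 17.4% of all genes, and 2 of the 5 had to be called, with Il7r at 29.0% against 1.35% and the chemokine receptor gene Ccr7 at 24.9% against 1.35%. DN-like cells had these genes too, and 4 of 5 were lower in ISP-like cells, beside 36.4% of all genes, such as Cdk6 (74.7% to 33.7%).

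Most of the tested genes induced by TCR signals had higher shares in DPsel-like than in DPre-like cells. From DPre-like to DPsel-like cells 8 of 9 tested were higher and none lower, beside 15.8% and 16.4% of all genes, but 4 of the 8, Egr1, Egr2, Nr4a1 and Junb, had to be called. Of the other 5 genes 4 were higher and none lower, beside 11.5% and 13.1% of such genes in the table, with a median of 3.51 points beside -0.03. The immediate early genes Egr1 (2.93% to 19.2%, ratio 6.56, 3.45 to 12.5), Junb (3.19% to 18.7%) and Ier2 (7.45% to 17.8%) and the phosphatase gene Dusp2 (16.5% to 40.6%) were among them. In cluster 1 against cluster 5, 5 of 9 were lower and 1, Junb, higher (15.5% to 24.4%), beside 17.4% and 17.5% of all genes, the former including Egr1 (25.7% to 11.9%), Dusp2 (44.6% to 23.3%) and Nr4a1 (14.2% to 4.66%). In CD4sp-like against DPsel-like cells 4 of 9 were lower, 2 of which had to be called, and 1, Ier2, higher (to 28.2%), beside 19.2% and 14.6% of all genes. Within cluster 5, Egr1 was kept in 30.2% of the 86 cells with Id3 (20.8 to 41.1) and in 19.4% of the 62 without (10.4 to 31.4), so the intervals overlapped. Other genes of the list went the other way, among them Egr2 (3.49% with Id3 and 11.3% without), Nr4a1 (11.6% and 17.7%) and Nfkbia (40.7% and 53.2%), also with overlapping intervals.

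Over the 16 clusters, each member's thinned share was compared with those of 5305 genes by Pearson correlation, as a description of points that share 1 library. The genes most like Tcf12 were Nck2 (0.92), Rcsd1 (0.91) and Mier1 (0.88), and those most like Tcf3 were Smc4 (0.87), Topors (0.83) and Trim27 (0.82). Id2 was most like Herc3 (0.95), Cers4 (0.95) and Cd82 (0.94), of which Herc3 and Cers4 reached the 10% needed for ranking only in the 29 NCL-like cells, where Id2 is highest. Without that cluster the values were 0.92, 0.90 and 0.81. Id3 was most like Mia3 (0.76), Spcs2 (0.75) and Spen (0.75), of which Spen reached 10% only in cluster 5, where Id3 is highest. Without cluster 5 the values were 0.74, 0.75 and 0.65. Among the members, Id2 ran against Tcf3 (-0.88, and -0.81 without the NCL-like cluster) and Tcf12 (-0.53 and -0.69). The value for Id2 and Id3 rested on the NCL-like cluster (-0.44, and -0.11 without it), and Id3 and Tcf12 were nearly unrelated (0.06 and -0.02).

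Open chromatin at Tcf3 and Id2 gave small differences between the DN, DP, CD4 and CD8 sorts. Signal at a locus is the sum of counts in peaks that do not overlap, per 10000 counts in such peaks. The table held 1108749 counts in peaks for DN, 478264 for DP, 558091 for CD4, 494645 for CD8 and 6402950 for Total cells. Tcf3 (chr10:80409514-80433647, minus strand, 9 peaks) had 0.67 in DN, 0.63 in DP, 0.73 in CD4, 0.68 in CD8 and 1.24 in Total cells. Id2 (chr12:25093799-25097140, minus strand, 91 peaks, of which 76 lie over 50 kb from the start) had 4.39, 4.31, 5.48, 4.78 and 3.01 in the same order. The ratios of DN over DP cells and of single-positive (SP, CD4 and CD8 together) over DP cells had intervals that include 1, with Id2 at 1.02 (0.83 to 1.26) for DN over DP and 1.20 (0.97 to 1.47) for SP over DP.

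Tcf12 and Id3 gave larger differences. Tcf12 (chr9:71842688-72111871, minus strand, 47 peaks) had 2.10 in DN (1.77 to 2.48), 1.30 in DP (0.91 to 1.79), 1.44 in CD4, 2.10 in CD8 and 1.30 in Total cells, so that DN over DP was 1.62 (1.13 to 2.33). This did not hold within every series of cell label numbers. DN cells ran from 1.39 to 2.52 over 5 series, while DP cells had 0.84 and 1.17 in 2 series and 3.87, from 13 counts in 29 cells, in the shallow series numbered from 31000. With label numbers of 31000 and above DN over DP was 0.52, but the series from 32000 holds DN cells and no DP cells. In the series from 31000 alone DN cells had 1.39, from 6 counts. In the series from 4000 DN cells had 1.79 and DP cells 0.84. Id3 (chr4:136143497-136145755, plus strand, 32 peaks) had 1.44 in DN, 1.54 in DP, 0.82 in CD4 (0.55 to 1.19), 1.59 in CD8 and 2.61 in Total cells (2.45 to 2.77). The lower CD4 than CD8 value was seen in the series numbered from 4000 (0.79 and 1.70) and not in the shallow one from 31000, where CD4 cells had 0.95 from 6 counts and CD8 cells 0 of 18873 counts (up to 1.95). Over the 36 plates of Total cells the Id3 locus ranged from 1.67 to 4.60, with a median of 2.49. The Total cells carry label numbers of their own form, shared with no sort, so sort and preparation cannot be told apart.

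**Figure D4:**
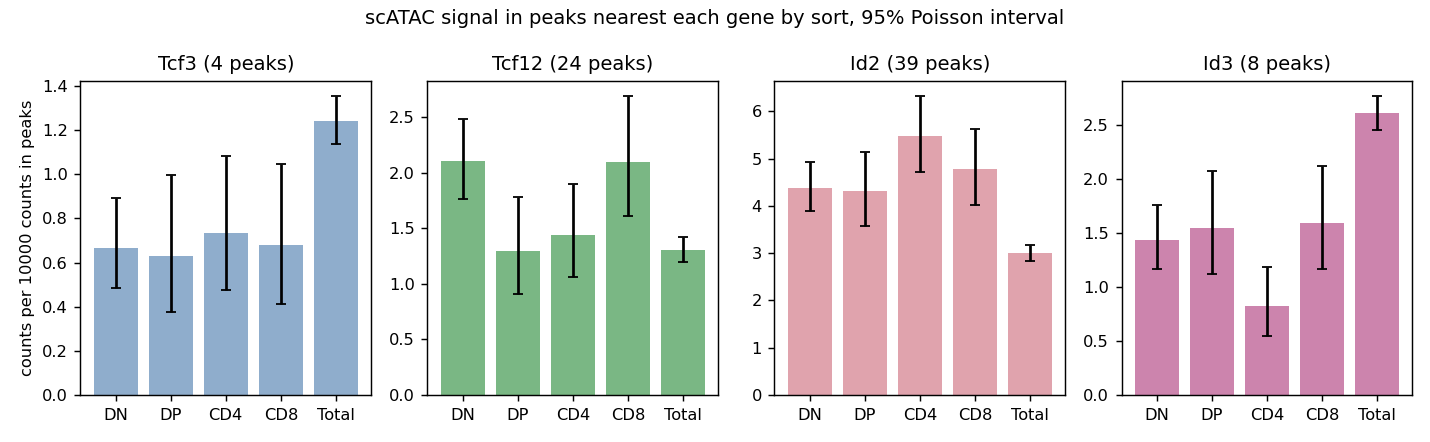
Counts at each locus per 10000 counts in peaks that do not overlap (vertical axis, 1 panel per gene) by sort, with 95% Poisson intervals as bars. Id3 and Tcf3 stand highest in Total cells (2.61 and 1.24), Tcf12 in DN and CD8 cells (2.10 in each) and Id2 in CD4 cells (5.48).

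Single peaks were read where both sorts together gave at least 20 counts. Of the 179 peaks, 17 could be read for DN over DP, of which 6 were at least 1.5-fold higher and 3 lower, beside 23.5% and 25.6% of 20464 peaks. For SP over DP 3 were higher and 4 lower of 20, beside 27.2% and 22.6%. For CD8 over CD4 2 were higher and 1 lower of 6, beside 20.8% and 24.5%. For Total over DP 26 were higher and 23 lower of 68, beside 32.6% and 29.6%. The Id3 locus held 12 of the higher ones among its 21 readable peaks and Id2 17 of the lower ones among its 31. Many of these peaks overlap and share counts, so they are not independent readings. Only 8 of the 32 Id3 peaks and 39 of the 91 Id2 peaks do not overlap.

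The peaks at the transcription starts were open in every sort. The Id2 start peak had 39.7 counts per 1000000 counts in peaks (CPM) in DN (28.8 to 53.3), 56.5 in DP, 71.7 in CD4 (51.2 to 97.6), 64.7 in CD8 and 53.6 in Total cells. The Id2 start was thus open in the DN and DP sorts, and the RNA classes of those stages had Id2 shares of 3.31% to 11.0%. The Id3 start peak had 27.1 in DN, 35.5 in DP, 32.3 in CD4, 32.3 in CD8 and 60.9 in Total cells. The Tcf3 start peak had 36.1, 35.5, 41.2, 40.4 and 69.5 in the same order. The Tcf12 start peak was weaker, with 3 to 11 counts in each of the 4 sorts and 21.6 CPM in Total cells. For the Id3 and Tcf3 start peaks the DN over DP, SP over DP and CD8 over CD4 ratios had intervals that include 1. At the Id2 start they did as well, while DN and CD4 cells lay farthest apart.

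Away from the starts, the 3 distal peaks shown above were read, which were chosen by their counts over all cells. Total cells gave most counts, so a high Total value is in part built into that choice. The Id2 peak 92385 bp upstream had 41.5 CPM in DN (46 counts), 20.9 in DP (10), 17.9 in CD4 (10), 36.4 in CD8 (18) and 28.6 in Total cells, giving a DN over DP ratio of 1.98 (1.00 to 3.93) and a CD8 over CD4 ratio of 2.03 (0.94 to 4.40). The Tcf12 peak 21494 bp upstream had 20 counts in DN and 2 in DP cells (ratio 4.31, 1.01 to 18.4) and 9 each in CD4 and CD8 cells, and 5 of the DN counts came from 1 cell. The Id3 peak downstream of the gene had 20.7 in DN, 14.6 in DP, 12.5 in CD4, 14.2 in CD8 and 75.4 in Total cells (68.9 to 82.5), a Total over DP ratio of 5.15 (2.44 to 10.9). It was open in 344 of 1084 Total cells, and after thinning each cell to 1000 counts in 6.33% of 1075 Total and 0.86% of 116 DP cells. Of the 36 plates, 30 exceeded the highest of the 12 series of sorted cells (54.1 CPM), but the Tcf3 start peak, with a Total over DP ratio of 1.96 (1.20 to 3.17), did so on 30 plates as well. A peak just upstream of the Id2 start, with 15 counts in DP and 6 in DN cells, rested on 3 DP cells, 1 of which held 7 counts.

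**Figure D5:**
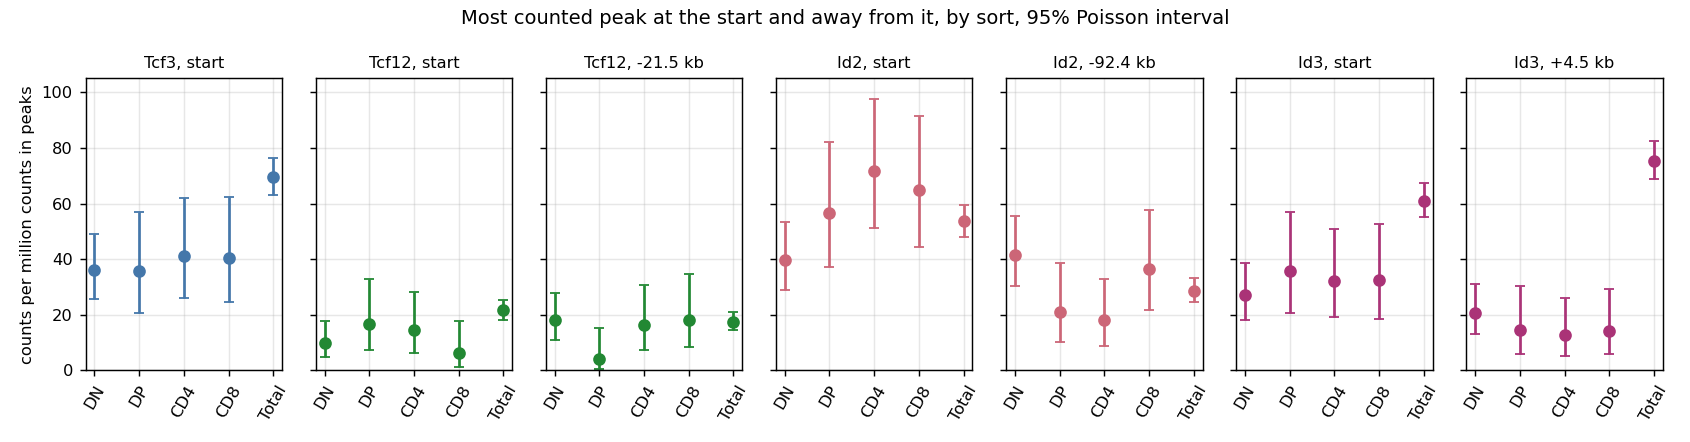
Counts per 1000000 counts in peaks (CPM, vertical axis) at the start peaks of the 4 genes and at 3 distal peaks, by sort, with 95% Poisson intervals as bars. The Id2 start runs from 39.7 in DN to 71.7 in CD4 cells, whereas the Id3 downstream peak stands at 75.4 in Total cells and between 12.5 and 20.7 in the sorts.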

How the data were processed

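The study sequenced 1 droplet RNA library and single-cell open chromatin of mouse thymocytes. Per the labels, RNA reads were processed with Cell Ranger 1.3.1 on GRCm38.p5, and the authors deposited log2 values after quantile normalization for 1993 cells. For chromatin the authors used Bowtie2 for mapping, Picard for duplicate removal and MACS2 for peaks of all cells merged, and deposited counts per peak and cell. Of the chromatin columns 362 were not used because their labels gave no sort or plate. The 4 members and the gene lists were chosen with earlier results of these data known.

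RNA was clustered in Seurat 5.3.0 (R 4.3.3) on variable genes (mean 0.025 to 3, dispersion over 0.5). Thinned shares carry exact binomial intervals and chromatin sums Poisson intervals (scipy 1.17.1). No test was run, as each group is 1 sample. Thinning and the count ratios were tried on simulated counts, which did not pass through quantile normalization or the ranking into steps. Peaks were assigned by the nearest GENCODE start. Named list genes were at most 4 a list and comparison, by size of the difference among those called. Peak centers lay within 2 kb of a start in 27.9% and, after a shift of 100000 bp, in 9.41%. No cell barcode was shared between libraries, as there was 1 RNA library.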

Additional observations from a re-analysis of the deposited data

How the results depend on the processing

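No paired analysis was possible because no result comes from a test and the labels name no animal shared by cells of different sorts. Some series of label numbers hold several sorts, and ratios limited to ranges of label numbers are given here. The RNA ratios of DPsel-like and DN-like over DPre-like cells were recomputed under 12 alternatives and the locus ratios of DN and SP over DP under 7, and the cause of any shift was not tested. The Tcf3 and Tcf12 ratios of DPsel-like over DPre-like cells stayed within their counting error under all 12. Without thinning, DN-like over DPre-like cells gave 1.81 for Tcf3, past 1.5-fold, 1.03 for Tcf12, 3.87 for Id2 and 0.70 for Id3, where DN-like cells are the deeper ones. For DPsel-like over DPre-like cells, Id2 gave 1.39 at clustering resolution 1, and Id3 gave 2.04 with cells thinned to 1000 steps. With alternatives chosen after seeing the data, cluster 1 as DPsel-like gave 6.51 for Id2 and 1.14 for Id3, and DPsel-like cells without their smaller cluster gave 1.56 for Id2. The other RNA ratios were recomputed only with the average over all possible thinnings, also chosen after seeing the data. All stayed within their counting error, but Tcf12 passed 1.5-fold in CD4sp-like over DPsel-like cells (0.64, 0.44 to 0.94, in place of 0.77). Tcf3 fell short of 1.5-fold in cluster 1 over cluster 13 (0.71 in place of 0.62). Among the loci, label numbers of 31000 and above (series 31000 and 32000) gave 0.52 for Tcf12 in DN over DP, a reversal. The series from 32000 holds DN cells and no DP cells. For SP over DP the same label numbers gave 0.60 for Tcf12, 0.41 for Tcf3 and 0.41 for Id3. Label numbers from 4000 alone gave 1.97 for Tcf12 in SP over DP and 0.65 for Id3 in DN over DP. Peaks within 2 kb of a start gave 1.04 and 0.72 for Tcf12 in DN over DP and SP over DP, and 0.70 for Id2 in DN over DP, which was 0.81 within 50 kb. Low counts limit single peaks in the sorts, and shares near 1 cell in small classes.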
